A study of Mus musculus with 6 samples.

Results

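The genes described here mark newly committed oligodendrocytes, the glia that will form myelin. They are Bcas1, Enpp6, Myrf, Gpr17, Tcf7l2, Sirt2, Nkx2-2 and Plxnb3, 8 genes of the 24411 in the deposited tables, found by symbol, with counts and TPM (a level per transcript length, scaled to the library) summed over their transcripts. They were chosen by their lower counts in the knockout libraries of this same comparison, so differences between the genotypes are given for them as descriptions and support nothing. The 6 libraries come from corpus callosum, the tract of axons that joins the cortical hemispheres, dissected by hand from frozen sections of B6 mouse brain on postnatal day 4. There are 3 libraries of WT mice and 3 of Mettl14 cKO mice, in which the gene is conditionally deleted. Mettl14 is part of the complex that places the mark N6-methyladenosine (m6A) on RNA. No treatment is named for either group, and the Cre driver, the cells that lost Mettl14, and whether each library is a separate animal are not stated. P-values thus measure only the spread between these libraries, which may be technical.

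Oligodendrocytes arise from dividing precursors that carry the receptor Pdgfra. On leaving the cell cycle they pass through a short premyelinating stage, in which Gpr17, Bcas1 and Enpp6 are switched on, before the myelin proteins are made in bulk. Nkx2-2, Tcf7l2 and Myrf are transcription factors that act in sequence around this step, and Myrf directly activates myelin genes. At postnatal day 4 the rodent callosum is at the start of this process.

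For 2 of the genes the transcript tables separate forms that differ by 1 coding exon, and the results below turn on these exons. The Bcas1 exon is exon 7 of 13 (chr2:170384189-170384326, minus strand, GRCm38), 138 bases inside the coding sequence, which has 633 codons with it and 587 without. The Sirt2 exon is exon 2 of 16 (chr7:28767632-28767678, plus strand, GRCm38), 47 bases long, and the coding sequence has 389 codons with it and 352 without. Capitals mark the exon and lower case the 15 bases on each side, from GENCODE M21 transcripts matched by RefSeq accession.
Bcas1 exon 7: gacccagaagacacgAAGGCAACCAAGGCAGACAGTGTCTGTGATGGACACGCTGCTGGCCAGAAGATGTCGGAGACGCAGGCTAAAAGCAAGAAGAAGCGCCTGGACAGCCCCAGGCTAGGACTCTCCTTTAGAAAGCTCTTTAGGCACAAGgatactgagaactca
Sirt2 exon 2: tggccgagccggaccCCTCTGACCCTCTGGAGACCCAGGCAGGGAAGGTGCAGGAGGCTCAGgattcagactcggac

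Promoters are shown as a description of the genes, and their part in the lower counts was not tested. RefSeq promoter windows (GRCm38.p6) matched 5 of the 8 genes, with 6 windows, and Bcas1, Myrf and Gpr17 had none. The 250 bases before each annotated start were searched on both strands for 7 letter strings. The windows of Enpp6, Nkx2-2 and Plxnb3 and 1 window of Tcf7l2 lie within the gene's own RefSeq span. The SOX-type string ACAATG or its reverse CATTGT stood in 4 of the 6 windows, 1 each of Enpp6, Sirt2, Tcf7l2 and Plxnb3, and in 10.7% of all 32851 windows. It was in more of the 6 windows than any other of the 7 strings, and only windows with it are printed. The Plxnb3 window, which holds the string in both directions, is not printed. In the lines that follow these letters are in capitals, and the Sirt2 window ends where the first annotated exon begins.
Enpp6, chr8:46986637-46986886, plus strand: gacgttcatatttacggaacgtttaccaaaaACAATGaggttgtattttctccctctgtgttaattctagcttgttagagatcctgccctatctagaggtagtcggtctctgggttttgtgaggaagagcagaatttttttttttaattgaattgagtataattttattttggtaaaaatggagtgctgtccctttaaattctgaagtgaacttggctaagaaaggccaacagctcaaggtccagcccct
Sirt2, chr7:28766502-28766734, plus strand: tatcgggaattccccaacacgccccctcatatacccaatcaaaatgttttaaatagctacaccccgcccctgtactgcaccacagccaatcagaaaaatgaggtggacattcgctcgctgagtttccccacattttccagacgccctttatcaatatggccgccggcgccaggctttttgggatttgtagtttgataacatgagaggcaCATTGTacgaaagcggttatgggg
Tcf7l2, chr19:55741560-55741809, plus strand: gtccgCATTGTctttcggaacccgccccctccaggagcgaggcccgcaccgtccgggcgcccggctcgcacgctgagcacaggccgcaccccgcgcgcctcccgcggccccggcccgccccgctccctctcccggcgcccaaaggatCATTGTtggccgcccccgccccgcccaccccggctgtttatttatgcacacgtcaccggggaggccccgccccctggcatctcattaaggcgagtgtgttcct
The related string ACAAAG was in windows of Plxnb3 and Tcf7l2, against 16.5% of all windows. The string TCAAAG, read by TCF/LEF factors and sharing CAAAG with the former, was in none of the 6 windows, against 13.8%. CAGCTG, an E-box, was in the Plxnb3 window (13% of all), AAGTG, an NK homeobox core, in windows of Enpp6, Nkx2-2 and Tcf7l2 (40.7%), TATAAA in 1 Tcf7l2 window (12.4%), and GGGCGG in windows of Nkx2-2, Sirt2 and Tcf7l2 (32.7%). A match is a description of the letters and not a binding site.

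Depth was low, at 670462 to 1268430 expected counts per library, so that 1 count was worth 0.803 to 1.41 CPM (counts scaled to library size). The 3 counts that a count of 0 allows are 2.41 to 4.24 CPM, for counting error only. Both replicate 2 libraries were deeper and had shorter fragments (304.3 and 292.7 bases, against 332.4 to 350.5 in the others). The targeted Mettl14 was counted 11, 8 and 5 times in WT against 2, 7 and 2 times in cKO, so its loss was not detectable at this depth. Xist was counted in cKO only, at 2323 to 4618, and the Y-linked Eif2s3y in WT only, at 51 to 80. The Y-linked Ddx3y, Uty and Kdm5d were also counted in each WT library and in no cKO library. By these transcripts the WT libraries read as male and the cKO libraries as female. For every gene, a difference between genotypes thus cannot be told apart from one between sexes. The labels name the tissue as callosal axon, and glial RNA was plentiful in it: astrocyte markers summed to 4396 to 5428 TPM in WT and 1041 to 1699 in cKO. In bulk RNA, fewer cells of a type and less RNA per cell cannot be told apart.

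The 8 genes lay at very different levels in WT callosum. Sirt2, an NAD-dependent deacetylase abundant in oligodendrocytes, had 1025, 1031 and 928 TPM in WT replicates 1 to 3, a mean of 995 ± 57.8 (SD, n = 3). It ranked 177 of the 12441 genes with a TPM above 0 in WT. Bcas1, a cytoplasmic protein of early myelinating cells, had 522, 360 and 387 TPM, a mean of 423 ± 86.7 (SD, n = 3), and ranked 380. Together Sirt2 and Bcas1 made up at least 97.8% of the summed TPM of the 8 genes in each WT library.

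The other 6 genes were near the middle or the bottom of the WT transcriptome. Plxnb3, a receptor for semaphorins, had 8.97, 9.25 and 9.57 TPM. Enpp6, a choline-specific phosphodiesterase, had 7.36, 11.06 and 6.47 TPM. Myrf had 6.17, 4.22 and 4.75 TPM, and Tcf7l2, the effector of Wnt and beta-catenin signals, 4.95, 2.49 and 4.34 TPM. Gpr17, the receptor that holds cells at the premyelinating stage, had 0.32, 0.24 and 1.21 TPM, and Nkx2-2, the homeobox factor that acts early in the step, 0, 0 and 2.89.

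In the order Sirt2, Bcas1, Plxnb3, Enpp6, Myrf, Tcf7l2, Nkx2-2, Gpr17, the WT libraries of Sirt2 and Bcas1, of Bcas1 and Plxnb3, and of Enpp6 and Myrf did not overlap. Those of Plxnb3 and Enpp6, of Myrf and Tcf7l2, of Tcf7l2 and Nkx2-2, and of Nkx2-2 and Gpr17 did, so these neighbours cannot be ordered. The plot of TPM by library shows the gap between the first 2 genes and the rest.

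**Figure D1:**
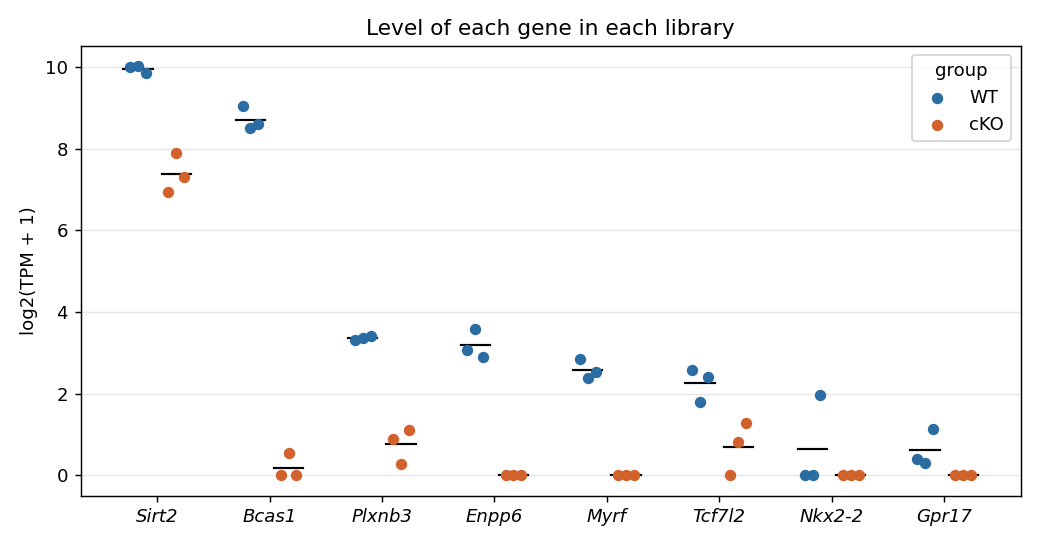
Level of each gene on the log2(TPM + 1) scale (vertical axis) in the 3 WT and 3 cKO libraries (points) with the group mean (bar). Sirt2 keeps 121 to 238 TPM in cKO, while Enpp6, Myrf, Gpr17 and Nkx2-2 are at 0 in each cKO library.

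The spread among WT libraries differed between genes. The coefficient of variation of CPM was 1.90% for Sirt2 and 20.7% for Bcas1, where counting alone gives 3.03% and 3.47%. For Enpp6 it was 23.2% against 24.3% from counting, for Myrf 21.3% against 22.9%, for Plxnb3 9.70% against 16.2% and for Tcf7l2 35.7% against 31.1%. Of these 6 genes Bcas1 thus had the 1 spread well above counting error, with 924, 854 and 719 counts at 1040, 686 and 837 CPM. Bcas1 was lowest in WT replicate 2, a library with short fragments. The part of fragment length in this was not tested.

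Bcas1 stood at 84.6, 85.4 and 81.5 times the TPM of Myrf in WT. With 21, 19 and 17 counts of Myrf, counting error alone is 22.9%, so no constancy can be read from these ratios. Relative to the precursor receptor Pdgfra, Bcas1 stood at 2.75, 1.94 and 1.90 times. These ratios describe 3 libraries and share each library's depth.

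The 8 genes were lower in the cKO libraries to very different degrees. Bcas1 was counted 924, 854 and 719 times in WT against 0, 1 and 0 times in cKO, a pooled ratio of 2043 (95% counting interval 366 to 80720). Enpp6 was counted 13, 26 and 12 times in WT and never in cKO, thus at least 13.9-fold lower with 3 counts taken over the cKO group. Myrf was counted 21, 19 and 17 times in WT and never in cKO, thus at least 15.5-fold lower by the same floor. For these 3 genes every WT library was well above every cKO library.

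The next 3 genes kept some counts in cKO. Plxnb3, on the X chromosome, was counted 33, 45 and 37 times in WT against 3, 1 and 3 times in cKO, a pooled ratio of 13.4 (interval 6.32 to 34.2). Tcf7l2 was counted 12, 8 and 11 times in WT against 0, 2 and 2 times in cKO, a pooled ratio of 6.34 (interval 2.24 to 24.7). Sirt2 was counted 991, 1334 and 938 times in WT against 114, 302 and 105 times in cKO, a pooled ratio of 5.12 (interval 4.67 to 5.63). In CPM Sirt2 was 1092 ± 20.8 in WT and 201 ± 87.4 in cKO (SD, n = 3), and cKO replicate 2, at 302 CPM, held more than the 153 and 149 of the other two. No WT library of these genes overlapped a cKO library. Of the summed TPM of the 8 genes, Sirt2 took 65.1% to 72.7% in WT and at least 98.4% in cKO.

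Gpr17 and Nkx2-2 were too low for a comparison of weight. Gpr17 was counted 1, 1 and 4 times in WT and never in cKO, thus at least 1.64-fold lower. Nkx2-2 had 2 counts, both in WT replicate 3, and none elsewhere, so it has no fold. In their longest matched transcript both have 2 exons, and 1.1% of tested genes with a matched transcript have fewer. Genes with 1 to 3 exons and a mean of at least 20 CPM were at 0 or 1 count in 43.5%, 12.6% and 37.4% of cases in the WT libraries, against 20.4%, 5.76% and 35.1% in cKO. Genes with more exons were so in 0.715% to 3.84%. The part of this loss in the low values of Gpr17 and Nkx2-2 was not tested.

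Across all genes, edgeR's quasi-likelihood test called 25 genes lower in cKO, 0.422% of 5918 tested, and 29 higher, 0.490%, at a Benjamini-Hochberg adjusted p below 0.05. At an unadjusted p below 0.05 they were 5.41% lower and 7.16% higher, and DESeq2 called 3.06% of its genes lower. Of the 8 genes 5 passed the filter on low counts (Bcas1, Enpp6, Myrf, Plxnb3 and Sirt2) and were among the 25, and DESeq2 called the same 5 lower, which the choice of genes fixes and from which nothing is read. The median fitted log2 fold change over the 8 was −3.82, and −3.75 over the 7 with a pooled ratio or bound, against 0.07 over all tested genes. The first takes in fitted values of Gpr17 and Nkx2-2, which rest on 6 and 2 pooled counts in WT against 0 in cKO. For the 4 genes at 0 in every cKO library a fitted fold is not a measured value. In 7 of the 8 every WT library was above every cKO library, as for 9.45% of tested genes, and in none was every cKO library above every WT library, as for 10.4%. The 7 hold all 5 tested genes, and also Gpr17 and Tcf7l2, which were below the filter. The share over genes below the filter was not computed. Of the 8 genes limma-voom called 3, where it called 20 of the 5918 tested genes lower. With edgeR 1 was called without a filter, 1 with genes kept at 1 CPM in 3 libraries, 1 with the fragment length batch as a term and 0 with a replicate block (5 at an unadjusted p below 0.05). The calls rest on all 6 libraries: with any of WT replicates 1 and 3 or cKO replicate 1 left out edgeR called 0 of the 8 (5, 5 and 6 at an unadjusted p below 0.05, with edgeR alone run on these subsets), and with WT replicate 2 or either of cKO replicates 2 and 3 left out it called 1, Bcas1.

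The split of a gene's counts among its transcripts within WT did not enter the choice of genes. In WT the Bcas1 transcript with exon 7 took 85.6%, 98.3% and 84.2% of the gene's expected counts, or 89.6% of the pooled counts (exact binomial interval 88.3% to 90.8%). The form without it had 133, 14.1 and 113 expected counts. WT replicate 2 thus stood apart, and it is the WT library with shorter fragments, whose part was not tested. The 1 Bcas1 count in cKO was assigned to the form without exon 7.

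The forms of Sirt2 were present in different proportions in the 2 genotypes. The form with exon 2 took 29.1%, 22.1% and 26.0% of Sirt2 expected counts in WT and 64.1%, 40.2% and 46.0% in cKO, so the groups did not overlap. How often the transcript shares of other genes also do not overlap was not computed, so this has no background. The form without exon 2 took 69.8%, 76.3% and 71.7% in WT and 35.9%, 59.8% and 54.0% in cKO. The form of 1653 bases had 1.05% to 2.27% in WT and none in cKO. In CPM the form with exon 2 was at 324, 237 and 284 in WT and 98.2, 122 and 68.4 in cKO, a pooled ratio of 2.78 (counting interval 2.41 to 3.23). The form without it was at 777, 818 and 783 in WT and 55.1, 181 and 80.2 in cKO, a pooled ratio of 7.01 (interval 6.19 to 7.97). RSEM divides reads common to the forms by estimate, which the intervals do not cover. The difference comes from the contrast that chose the genes and was given no test.

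**Figure D2:**
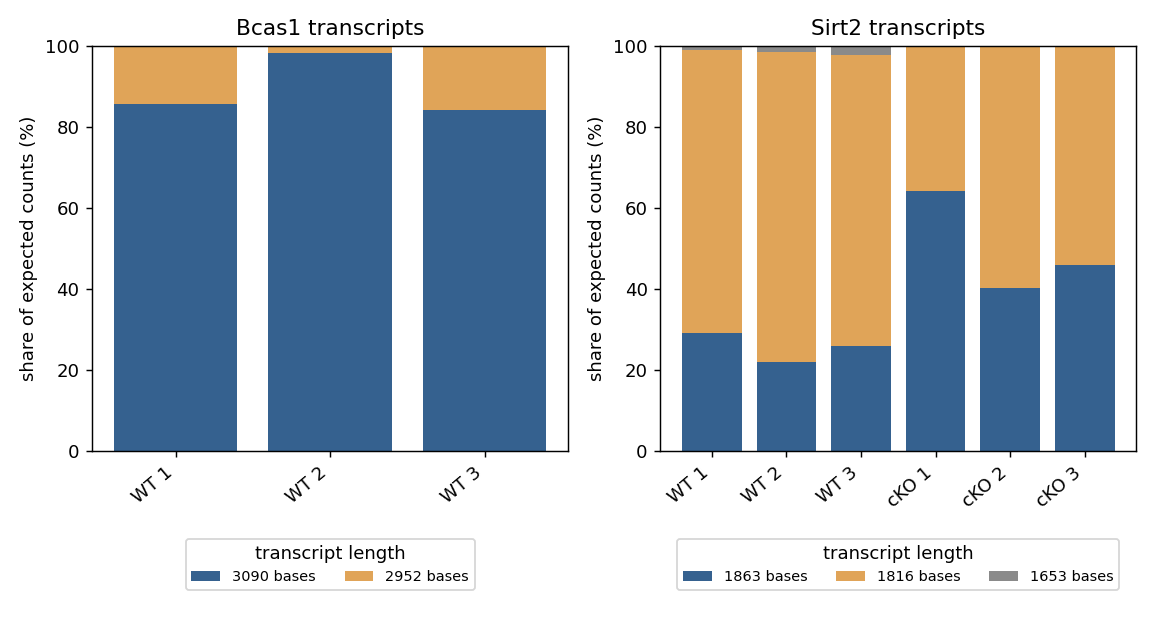
Share of a gene's expected counts (vertical axis, percent) assigned to each transcript, by library, for Bcas1 in WT and Sirt2 in WT and cKO. The 3090-base Bcas1 and 1863-base Sirt2 transcripts hold the exons printed above, and the latter takes at most 29.1% in WT and at least 40.2% in cKO.

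Tcf7l2 has 8 transcripts in the tables and 31 pooled counts in WT. Of these 16 were assigned to a form of 4054 bases and 13 to one of 4127 bases, and the split varied from library to library with so few counts. The 4 counts in cKO were assigned to a form of 3454 bases that had none in WT. Enpp6, Myrf, Gpr17 and Plxnb3 have 1 transcript each in the tables.

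The genes shared no simple feature of length or exon number. Their longest matched transcripts ran from 1843 bases (Sirt2) to 6030 (Plxnb3), against a median of 3207 over tested genes, and from 2 exons to 35, against a median of 12. The string GGACT, a form of the consensus that the m6A writer prefers, occurred 1 to 5 times in each, as at least once in 92.5% of tested genes. Its density was 0.201 per kilobase in Enpp6 and 0.551 in Tcf7l2, the lowest, and 1.03 in Bcas1 and 1.085 in Sirt2, the highest, where the median was 1.05. The sequences read are GENCODE matches and can differ from the transcripts counted. They have 4970 bases against 3065 counted for Enpp6, and 3339 against 5597 for Myrf. The Tcf7l2 and Nkx2-2 transcripts read had no counts in any library. No m6A was measured in these libraries.

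On GRCm38.p6, Bcas1 lies on chromosome 2 (170343973 to 170427911), Enpp6 on chromosome 8 (46939197 to 47096762), Myrf on chromosome 19 (10208271 to 10240777) and Sirt2 on chromosome 7 (28766752 to 28788665). Tcf7l2 lies on chromosome 19 (55741797 to 55933659), Nkx2-2 on chromosome 2 (147176485 to 147195434), Plxnb3 on chromosome X (73756556 to 73772510) and Gpr17 on chromosome 18. Of the 8 genes 6 overlap another RefSeq gene, and without strand such reads cannot be told apart. Gpr17, on the minus strand, lies within the span of Lims2, on the plus strand, and Lims2 is itself a gene of this stage.

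Other genes of newly formed oligodendrocytes gave a less even picture. Of 25 listed, 24 had counts, 11 were tested, and 1 fell, Lims2, an adaptor of focal adhesions, counted 23, 19 and 23 times in WT against 1, 0 and 0 times in cKO (log2 fold change −5.36, SE 0.79, edgeR adjusted p = 0.0361). With DESeq2 5 of the 11 were lower and with limma-voom 0 (6 at an unadjusted p below 0.05). Without any 1 library edgeR called 0 (3 to 7 at an unadjusted p below 0.05).

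The calcium channel Itpr2 was counted 63, 87 and 46 times in WT against 1, 15 and 11 times in cKO, at −2.58 (SE 0.76), and did not pass (adjusted p = 0.241). Tns3, a focal adhesion protein, at −2.39 (SE 0.70), and Tmem163, a zinc transporter, at −2.34 (SE 0.63), did not pass either (adjusted p = 0.241 and 0.216). Fyn, a kinase of myelination and the most abundant of the list, had 462 ± 71.4 TPM (SD, n = 3) in WT and stood at −0.60 (SE 0.21). In 8 of the 11 tested genes every WT library was above every cKO library, against 9.45% of all tested genes. In 1, Mycl, at 1.57 (SE 1.39), every cKO library was above every WT library, against 10.4% of all tested genes. Of the 11, 9 had a log2 fold change below 0, against 46.1% of all tested genes. The median log2 fold change of the 11 was −1.0, against 0.07 over all genes.

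Markers of the stages before and after were also lower in sum. Of 12 precursor markers 6 were tested and 1 fell, Pdgfra, counted 764, 989 and 862 times in WT against 15, 31 and 8 times in cKO (log2 fold change −5.39, SE 0.49, edgeR adjusted p = 0.0114). Ptprz1, a receptor phosphatase, at −1.65 (SE 0.33), and Matn4, a matrix protein at 0 in cKO, did not pass with edgeR. DESeq2 called 3 of the 6 lower, these and Pdgfra, and limma-voom called Pdgfra. Of 20 myelinating markers 5 were tested and 3 fell, among them Mbp and Cnp, at 2 and 8 pooled counts in cKO. No counts were found in any library for 9 of the 20, Opalin, Mobp, Ermn and Mal among them, and Mog had 1. None of the genes called lower here or in other lists was called with WT replicate 1, WT replicate 3 or cKO replicate 1 removed, when edgeR called 0 genes lower in all (272, 256 and 260 at an unadjusted p below 0.05). Cldn11 was counted 3, 20 and 55 times in WT and Mag 9, 5 and 6 times. The widely expressed Hdac1 was also listed at 0 in all 6 libraries, so a 0 here does not show that a transcript was absent.

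Summed TPM was 1345 to 1575 in WT and 122 to 239 in cKO for the 8 genes, 590 to 778 and 117 to 283 for precursor markers, and 1347 to 2089 and 61.6 to 162 for myelinating markers. It was 835 to 986 and 575 to 726 for the other newly formed genes, of which Fyn, at 293 TPM in cKO, made up a large part. The myelinating marker Nfasc, at a log2 fold change of −0.06 (SE 0.41), had 76.1, 39.97 and 143.9 TPM in cKO. These were most of that list's cKO sums. The precursor marker Cacng4, at 0.73 (SE 0.47), had 52.2, 64.95 and 156.9 TPM in cKO, a large part of its list. Projection neuron markers went the other way, from 4215 to 4354 TPM in WT to 8229 to 9033 in cKO, where 1 of 12 tested genes, Neurod2, rose with all 6 libraries (no gene was called higher without WT replicate 3 or cKO replicate 1, and 317 and 331 had an unadjusted p below 0.05). Of 13 tested astrocyte markers 3 fell with edgeR (Aldoc and Ndrg2 among them), 8 with DESeq2 and 3 with limma-voom. Of 8 tested radial glia and cycling markers 2 fell with edgeR (Fabp7 and Ccna2), 4 with DESeq2 and 1, Ccna2, with limma-voom. For the neuronal markers DESeq2 called 4 higher and limma-voom 1. Of 5 tested endothelial, 5 microglial and 3 m6A writer genes edgeR, DESeq2 and limma-voom called 0, 0 and 0, save the endothelial Pecam1 with DESeq2, and 3, 0 and 1 had an edgeR unadjusted p below 0.05. The part of these cell types in the values of the 8 genes was not tested.

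**Figure D3:**
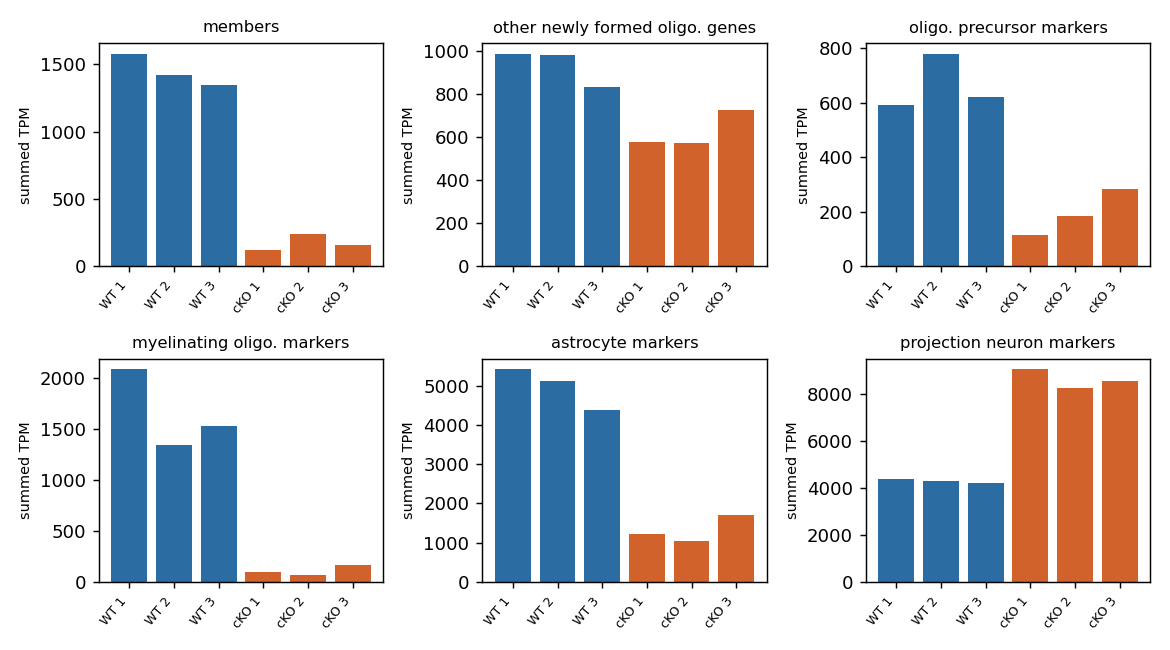
Summed TPM of each marker list (vertical axis, a separate scale per panel, from 0) in the 6 libraries (bars, WT blue, cKO orange). The 8 genes, called members in the panel title, lie at 1345 to 1575 in WT and 122 to 239 in cKO, and projection neuron markers are higher in each cKO library.

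Regulators of the lineage showed a mixed pattern, and 0 of 11 tested passed with edgeR (3 lower and 2 higher at an unadjusted p below 0.05) or limma-voom, while DESeq2 called 3 lower and 2 higher. Olig1, the most abundant, was counted 1719, 1637 and 1595 times in WT against 706, 625 and 0 times in cKO. Its partner Olig2 had 7, 1 and 4 counts in WT, and Sox10, which drives both Myrf and myelin genes, had 0, 1 and 1. The chromatin remodeller Chd7 stood at −2.57 (SE 0.65) and Sox6, a factor of precursors, at −2.75 (SE 0.77). Zeb2 at 1.42 (SE 0.28) and Sox4 at 0.80 (SE 0.23), both also expressed in young neurons, were higher in every cKO library without passing (edgeR adjusted p = 0.116 and 0.234).

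Components of the Wnt pathway, to which Tcf7l2 belongs, did not pass the test. Of 17 tested genes edgeR called 0 (0 lower and 3 higher at an unadjusted p below 0.05), limma-voom 0 and DESeq2 1, the corepressor Tle1. Ctnnb1, which encodes beta-catenin, was counted 2425, 2571 and 2288 times in WT against 1611, 2397 and 1642 times in cKO, a log2 fold change of −0.11 (SE 0.17). The median of the list was 0.22. Of the other TCF/LEF factors, Tcf7l1 was counted 7, 11 and 13 times in WT against 2, 12 and 4 times in cKO, Lef1 had 4 and 3 pooled counts, and Tcf7 had 0 and 2.

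Relatives of the 8 genes were also read. Among the other sirtuins 2 of 6 were tested, Sirt6 at 0.36 (SE 0.67) and Sirt7 at −0.38 (SE 0.44), with 0 calls by edgeR, DESeq2 or limma-voom and 0 at an unadjusted p below 0.05. Summed TPM of these 6 sirtuins was 42.1 to 50.02 in WT and 36.5 to 54.4 in cKO, far under that of Sirt2 in either group. The paralogs Plxnb1 at −0.43 (SE 0.80) and Plxnb2 at 0.36 (SE 0.47) overlapped between the groups, unlike Plxnb3. Of the plexin B ligands and partners, Sema4g at 2.73 (SE 0.89) and Sema4c at 1.93 (SE 0.74) were higher in each cKO library and did not pass (edgeR adjusted p = 0.267 and 0.354). DESeq2 called 1 of the 8 tested genes of this list, Sema4g, higher, and limma-voom called 0. Differences between paralogs were not tested.

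Enpp2, which encodes autotaxin and is also made by oligodendrocytes, was counted 162, 109 and 110 times in WT against 13, 20 and 4 times in cKO, at −3.18 (SE 0.66), and did not pass (edgeR adjusted p = 0.135). DESeq2 called Enpp2 lower, and limma-voom did not. The remaining 4 ENPP genes were not tested. The 6 other NK homeobox genes and Myrfl had no counts. Of 10 receptors related to Gpr17, 3 had counts, P2ry12 among them with 53 counts, all in WT replicate 3.

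**Figure D4:**
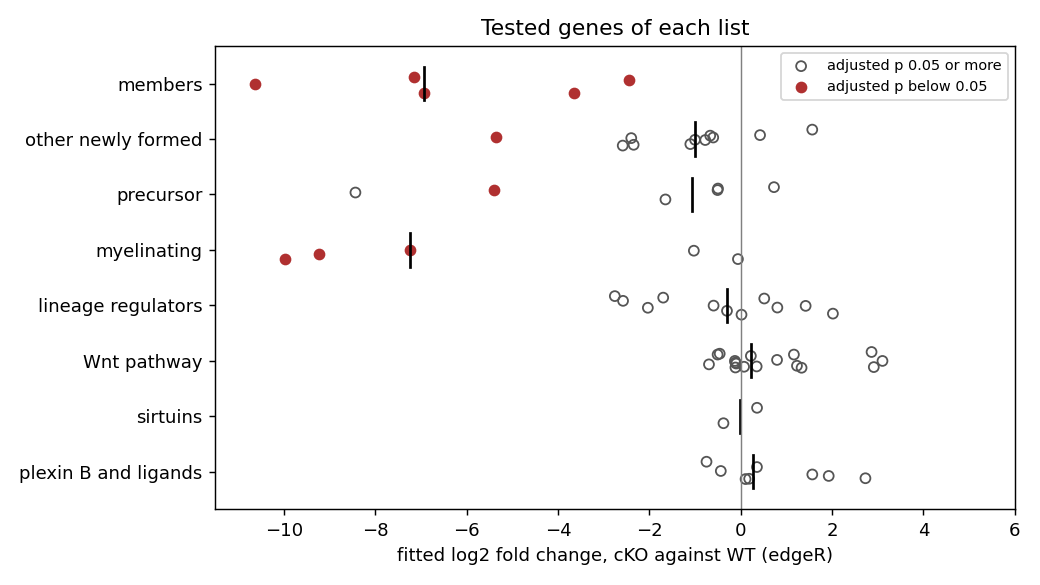
Fitted log2 fold change, cKO against WT (horizontal axis), of each tested gene (points, filled where the edgeR adjusted p is below 0.05) by list, with the list's median (bar). The 5 tested members lie at or below −2.44, which their choice fixes. The medians of the Wnt, sirtuin and plexin B lists are 0.22, −0.01 and 0.27. Single genes lie farther out, as Fzd7 of the Wnt list at 3.1, and the sirtuin list has 2 tested genes.

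The genes most like the 8 were sought by Pearson's r over the 6 libraries between log2(CPM + 1) and the mean profile of Bcas1, Sirt2 and Plxnb3, the 3 with at least 20 CPM in WT. The highest r were those of Gpr37l1, a glial receptor (0.9995), Eif2s3y (0.9991) and the astrocyte enzyme Aldoc (0.9988). Next came Myrf (0.9979), itself among the 8 and chosen by the same contrast, and S100a16, a calcium-binding protein (0.9967). Of 5915 genes compared 144 had an r above 0.9. The profile is in the main the step between the 2 genotypes, which a Y-linked gene shares, so likeness here does not set a stage of the lineage apart.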

How the data were processed

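Per the labels' protocols, polyadenylated RNA was taken on beads from callosum dissected by hand in 60 µm sections, and the library kit leaves strand unmarked. The aligner STAR 2.7.10b, the quantifier RSEM 1.3.3 and the mm10 build come per the submitters' processing notes. Which annotation release and filters were used was not given in the sources used here. For each library the authors deposited RSEM values of 35034 transcripts, namely TPM and expected counts (estimated fragments per transcript), per the file headers. Deposited effective lengths gave the mean fragment lengths.

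Expected counts were added up by gene, then rounded. Genotypes were compared with edgeR 4.0.16 (quasi-likelihood, TMM scaling, filterByExpr at a minimum of 10 counts) under R 4.3.3, without covariates, and adjusted over 5918 genes. The procedure was tested on simulated data. Each SE was worked back from F and so restates the p-value. Pooled ratios are of summed counts over scaled library sizes, with exact intervals at 95% that cover counting error only. Floors are 3 counts over a group. DESeq2 1.42.0 and limma 3.58.1 were alternatives, with those in the closing section. No 2 libraries matched within counting noise.

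The 8 members, the lists and the motifs were chosen with earlier results of these data known. Named genes are the members, Mettl14, genes of the family lists, in every other list up to 4 tested genes of smallest p and the most abundant one, and the 5 most alike. Olig2, Sox10, Mycl, the TCF/LEF factors, Hdac1, Nfasc, late myelin genes, Xist and the Y-linked genes were named after their values were seen. Zfp24 was not found by symbol. Some genes of the marker lists are not reported here by name.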

Additional observations from a re-analysis of the deposited data

How the results depend on the processing

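Counts of calls depended on filter, tool and libraries, and the cause was not tested. In what follows counts are genes lower in cKO, genes higher, members lower and other newly formed oligodendrocyte genes lower, which were 25, 29, 5 and 1. Without a filter, or keeping genes at 1 CPM in 3 libraries, edgeR gave 10, 12, 1 and 0 (9 of the last at an unadjusted p below 0.05 in both). DESeq2 gave 179, 250, 5 and 5, and limma-voom gave 20, 22, 3 and 0 (6 of the last unadjusted). With both replicate 2 libraries left out, chosen after seeing the data, edgeR gave 0, 0, 0 and 0 (351, 389, 6 and 4 unadjusted). With the fragment length batch as a term, also chosen later, it gave 8, 11, 1 and 0 (6 unadjusted). Leaving out 1 library in turn gave 0 to 14, 0 to 28, 0 to 1 and 0. RLE scaling, upper-quartile scaling and limma on log2(TPM + 1) stayed within 1.5 times.

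The members' median log2 fold change of −3.82 was −3.47 with DESeq2, −3.12 with limma-voom and −2.58 on log2(TPM + 1), where low genes are understated, and −3.56 to −4.01 without 1 library. Each of these medians takes in fitted values of members at 0 in every cKO library. No member's fold change turned in sign where one was fitted, which the choice of genes fixes. Enpp6, Myrf, Gpr17 and Nkx2-2, at 0 in every cKO library, could not turn. Nkx2-2 had no value without WT replicate 3, which holds its only counts.

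With the replicate number as a replicate block edgeR gave 0 lower and 1 higher gene, 0 members and 0 other newly formed genes (343, 420, 5 and 5 unadjusted, by edgeR alone). Deviations of same-numbered libraries correlated across genes with r of 0.0503, 0.456 and 0.155, and those of differently numbered libraries with −0.313 to 0.203. The highest, 0.456, is that of the replicate 2 libraries, which share shorter fragments. The main fit did not take the numbers as pairs, and whether they are was not tested. At this depth Gpr17, Nkx2-2 and Tcf7l2 stayed below the filter.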
